A study of Mus musculus with 30 samples.

Results

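Interleukin 1 (IL-1) is a cytokine that starts inflammation, and 7 genes of its system were followed here: the cytokine genes Il1b and Il1a, the receptor antagonist Il1rn, the signalling receptor Il1r1, the decoy receptor Il1r2, and the inflammasome genes Nlrp3 and Casp1. They were chosen by name, with Entrez numbers matched to symbols, and make up 7 of the 23013 gene rows of a Seq-Well single-cell RNA table. All 7 were above 0 in at least 1 of the 30 libraries, which cover 8 organs of 8 male DBA1/J mice aged 8 to 12 weeks. In collagen-induced arthritis (CIA), 4 mice (S1, S2, S6 and S7) received 100 µg bovine collagen II in complete Freund's adjuvant near the tail base, and a booster on day 20 in incomplete adjuvant. The 4 healthy controls (H3, H4, H6 and H7) carried no collagen, and by the study's methods were given buffered saline. Every mouse was of the same inbred strain, and the labels name no transgene or deletion in either group. The labelled arthritis score was 8 in S1 and S2, 3 to 4 in S6 and 3 in S7. Blood and lymph node were measured in 4 healthy and 3 CIA mice each. The other 6 organs (joint, skin, muscle, lung, spleen, thymus) had a single mouse in each state, always S1 for CIA, with H3 as the healthy joint and H6 as the healthy mouse of the rest. Blood here means mononuclear cells from a density gradient, a step that removes most neutrophils, so that it does not stand for whole blood.

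IL-1β and IL-1α bind the same receptor, IL-1R1, and turn on inflammatory genes through MyD88 and NF-κB. IL-1Ra, the product of Il1rn, occupies that receptor without signalling, and IL-1R2 binds the cytokine as a decoy. IL-1β is made as an inactive precursor in myeloid cells, and caspase 1 cuts it once an inflammasome such as that of NLRP3 has assembled. RNA levels therefore say nothing of how much active cytokine was released.

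The cytokine genes are neighbours, and so are the receptor genes (RefSeq, GRCm38.p6). Il1b lies on chromosome 2 from 129364569 to 129371164 and Il1a from 129299609 to 129310186, with 54.4 kb between them. Il1rn is on the same chromosome from 24336860 to 24351491. Il1r2 runs from 40084692 to 40125230 on chromosome 1 and Il1r1 from 40222480 to 40316201, 97.2 kb apart. Nlrp3 is on chromosome 11 from 59541569 to 59566955 and Casp1 on chromosome 9 from 5298517 to 5307281.

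The promoters of both gene pairs are shown because neighbours differed in how widely they were listed, Il1b in 15 and Il1a in 3 of 26 sums of a mouse and organ, and Il1r2 in 16 and Il1r1 in 5. Each line holds the 250 bases before a RefSeq transcription start, in the direction of the gene, from GRCm38.p6. Capitals mark TATAAA (the TATA box core), GGGCGG (the GC box core) and matches to the kappaB consensus, the motif bound by NF-κB, each sought on both strands. None of the matches shown overlap.
Il1b, chr2:129371140-129371389, minus strand: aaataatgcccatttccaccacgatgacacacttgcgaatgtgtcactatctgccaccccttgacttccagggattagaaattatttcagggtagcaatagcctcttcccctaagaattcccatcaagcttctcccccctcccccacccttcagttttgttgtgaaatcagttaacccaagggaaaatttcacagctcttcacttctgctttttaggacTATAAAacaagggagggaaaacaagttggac
Il1a, chr2:129309973-129310222, minus strand: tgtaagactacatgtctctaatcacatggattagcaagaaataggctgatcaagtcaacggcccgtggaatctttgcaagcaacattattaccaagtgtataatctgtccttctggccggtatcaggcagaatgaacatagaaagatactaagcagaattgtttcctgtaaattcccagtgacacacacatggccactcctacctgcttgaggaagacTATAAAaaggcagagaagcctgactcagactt
Il1r2, chr1:40085843-40086092, plus strand: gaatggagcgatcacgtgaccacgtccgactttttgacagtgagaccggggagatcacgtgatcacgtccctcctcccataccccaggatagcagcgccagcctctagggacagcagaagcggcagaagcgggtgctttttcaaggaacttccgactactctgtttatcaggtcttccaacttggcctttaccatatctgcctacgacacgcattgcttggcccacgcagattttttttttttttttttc
Il1r1, first start, chr1:40224830-40225079, plus strand: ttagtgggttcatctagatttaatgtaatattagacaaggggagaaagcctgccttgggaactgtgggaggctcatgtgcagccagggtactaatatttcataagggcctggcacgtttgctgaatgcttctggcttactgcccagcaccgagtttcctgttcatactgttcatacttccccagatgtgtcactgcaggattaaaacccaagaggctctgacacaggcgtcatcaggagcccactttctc
Il1r1, second start, chr1:40266336-40266585, plus strand: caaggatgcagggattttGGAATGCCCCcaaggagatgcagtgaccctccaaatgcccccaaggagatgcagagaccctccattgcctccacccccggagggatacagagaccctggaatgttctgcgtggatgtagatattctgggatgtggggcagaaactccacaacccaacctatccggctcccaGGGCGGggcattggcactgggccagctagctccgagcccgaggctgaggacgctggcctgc
Both cytokine genes held TATAAA, beginning 31 bases before the start of Il1b and 32 bases before that of Il1a. Among all 32851 promoter windows of this length, 12.4% held it. The second start of Il1r1 held GGGCGG, found in 32.7% of windows, and a kappaB match, found in 7.25%. Promoter windows were found for all 7 genes, and of the others only a window of Nlrp3 held a match, to the kappaB consensus. A match describes letters in this window and shows no binding.

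Levels are given in UPM, the units of a gene per 1000000 units of all genes, summed over the barcodes of a mouse and organ. The units are a smoothed signal and not counts, so a gene is called listed at 0 rather than absent, and no counting interval was derived. In such sums, fewer cells of a type and less RNA per cell cannot be told apart. Libraries held 217494 to 7886790 units and 27 to 934 barcodes, and 13 of 8255 barcode sequences occurred in more than 1 library. Genes that never exceeded a value of 1 made up 5.25% to 21.3% of the genes listed in 19 libraries and 37.1% to 58.1% in the other 11, so that rare genes were largely missing from the former. Every lymph node library (12.6% to 20.2%) was among the former. So were the blood libraries of S6 and S7, that of H7 and the smaller one of H4, while the other blood libraries kept rare genes. The healthy blood of H3 had 27 barcodes and 7 distinct profiles. The joint of S1 had a large library of 606 barcodes and a small one of 70. All 6 thymocyte markers were above 0 in thymus and all 6 keratinocyte markers in skin. Of 5 alveolar epithelial markers, 5 were above 0 in the healthy lung and 2 in the CIA lung. In the healthy muscle, only 2 of 6 skeletal muscle markers were above 0 (60.6 UPM summed, against 3732 in the CIA muscle), while 12 neutrophil markers summed to 106621 UPM. In blood, 8 red-cell markers held 3.58% to 51.6% of the units per mouse, although red cells had been lysed.

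The 7 genes differed in where they were listed. Il1b was above 0 in every blood sample, and Casp1 in 25 of the 26 sums of a mouse and organ. Il1r1 was confined to joint, skin and the CIA spleen among the sums measured, and Il1a to skin and healthy lung. Only Casp1 was listed in thymus.

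**Figure D1:**
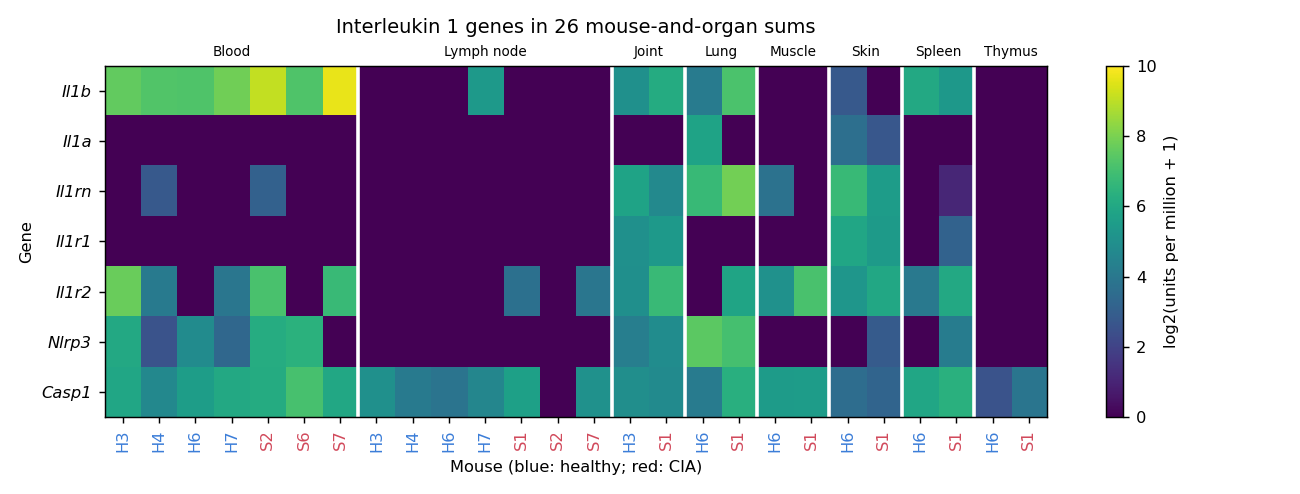
Level of the 7 genes (rows) in 26 sums of a mouse and organ (columns, names of healthy mice in blue and of CIA mice in red), as log2 of UPM plus 1. Il1b is bright throughout blood and dark in all lymph nodes but that of H7, while Il1r1 is seen in joint and skin and faintly in the CIA spleen.

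Il1b, which encodes IL-1β, had its highest level in blood. The 7 blood values ran from 151 UPM to 822 UPM with a median of 193 UPM, and 6 of the 7 lymph nodes were listed at 0. Lung stood at 144 UPM in CIA and 16.8 UPM in the healthy mouse, spleen at 39.5 and 63.7 UPM, and joint at 69.5 and 31.5 UPM in the same order. These 3 organs overlapped in their range and cannot be ordered with 2 mice each. Skin had 6.02 UPM in the healthy mouse and was listed at 0 in CIA, and muscle and thymus were listed at 0 in both mice.

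The difference of Il1b between blood and lymph node was larger than the spread between mice. Blood exceeded node in all 6 mice with both organs, and the 2 groups of 7 did not overlap. On the log2(value + 10) scale, blood was higher by 4.48 (SE 0.53, 95% interval 3.38 to 5.58, adjusted p = 2.9e-05, limma with Benjamini-Hochberg adjustment over all genes). Of the 4858 genes tested 13.7% were called, 2.37% were called as higher in blood and 0.597% had all blood values above all node values, and the median of all genes was -0.40. As 6 of 7 nodes were at 0, Il1b passed the filter on low values through blood alone, so nothing is read from setting it against these shares. With no filter on low values the difference was the same and the adjusted p was 5.5e-05. The estimate ran from 4.19 to 7.31 over the alternatives, the highest with a pseudocount of 1. Rare genes were largely missing from every node library but only from some blood libraries, so the organs were not treated alike. In S6, S7 and H7, whose blood libraries missed them too, blood Il1b was 151, 822 and 229 UPM. The part of this in the difference was not tested.

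The single node with Il1b was that of H7, at 41.0 UPM. Red-cell markers held 14.1% of the units of this node, against 0.0112% to 2.15% in the other nodes. Within the library, 35 of 249 barcodes listed Il1b. Their red-cell markers summed to 482484 UPM, against 22034 UPM in the 214 barcodes with Il1b at 0. Their neutrophil markers summed to 10299 UPM against 707 UPM. The part of blood cells in this value was not tested.

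Within blood, Il1b was 539, 151 and 822 UPM in the CIA mice S2, S6 and S7. It was 193, 155, 151 and 229 UPM in H3, H4, H6 and H7, which were healthy. S2 and S7 lay above every healthy mouse, while S6 lay at the level of the lowest one. Under the trimmed-mean scaling used for the test, the order of S2 (894) and S7 (559) was the other way, so they are not ranked here, and S6 (75.9) lay below the lowest healthy mouse (115 in H3). The group means were 504 ± 336 UPM (SD, n = 3) in CIA and 182 ± 36.5 UPM (SD, n = 4) in healthy mice. The log2 difference of 0.70 (SE 0.67, 95% interval -0.64 to 2.03) did not pass the test (adjusted p = 0.74, limma). Without S6 it was 1.71, still with an adjusted p of 0.64, without S7 it was 0.36 and without S2 it was 0.18. All CIA blood libraries had the suffix 2CIA, as did H3 and 1 of 2 libraries of H4, and among these it was 1.26 (adjusted p = 0.93).

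Neutrophil and monocyte markers varied across these mice too. The 12 neutrophil markers summed to 63849 UPM in S2 and 73981 UPM in S7, against 5235 UPM in S6 and 1655 to 5434 UPM in the 4 healthy mice. All 12 were above 0 in S2, and 3 of 12 in S6. The 9 monocyte markers summed to 12784, 12549 and 3718 UPM in S2, S6 and S7 and to 494 to 3195 UPM in the healthy mice. The highest healthy mouse was H3, where red-cell markers took 21.5% of the units, against 5.85% in S7. The order of S7 and H3 is therefore not read. Red-cell genes took unequal shares of the units, and relative to the units without them Il1b was 867, 163 and 873 UPM in S2, S6 and S7. It was then 246, 321, 157 and 282 UPM in H3, H4, H6 and H7, and the log2 difference became 0.80 (adjusted p = 0.69, limma). The part of neutrophils and monocytes in the levels was not tested.

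**Figure D2:**
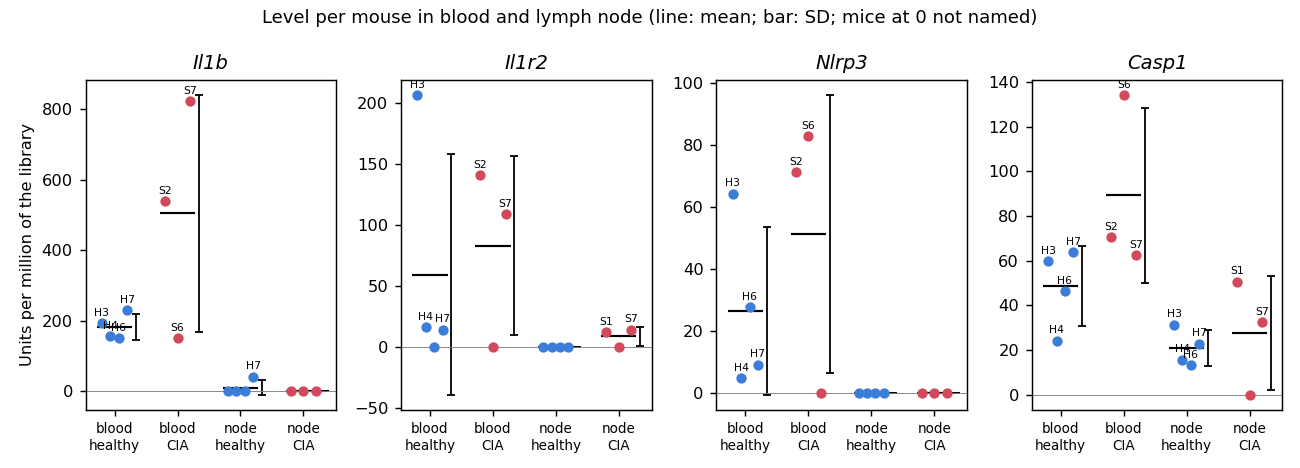
Level in UPM (linear axes) of Il1b, Il1r2, Nlrp3 and Casp1 in each healthy (blue) and CIA (red) mouse, in blood and lymph node, with the group mean (line) and SD (bar). The Il1b of S2 and S7 lies at 539 and 822, S6 lies with the healthy mice at 151, and all nodes but that of H7 lie at 0.

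Il1a, the gene of IL-1α, was listed at 0 in all blood, node, joint, muscle, spleen and thymus samples. Skin held 11.5 UPM in the healthy mouse and 5.64 UPM in CIA. Healthy lung held 54.4 UPM, where the CIA lung was listed at 0. The rare genes were mostly missing from the CIA lung library and kept in the healthy one, so this pair was not treated alike. No mouse-level test could be made for Il1a.

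Il1rn, the gene of the receptor antagonist, was highest in lung, and skin and joint overlapped in their range with 2 mice each. Lung had 233 UPM in CIA and 107 UPM in the healthy mouse. In skin the order was the other way, with 45.1 UPM in CIA and 105 UPM in the healthy mouse. The joint of H3 had 54.4 UPM and that of S1 24.8 UPM. Muscle was listed at 12.6 UPM in the healthy mouse only, spleen at 1.08 UPM in CIA only, and thymus and all nodes at 0.

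Blood held little Il1rn beside its Il1b. S2 had 7.55 UPM and H4 5.95 UPM, and the other 5 mice were listed at 0. With so few mice above 0, a two-sided exact permutation test over mice could give no p below 0.14 for CIA against healthy and none below 0.50 for blood against node, so these values cannot pass it. Across the 26 sums, Spearman's rho between Il1b and Il1rn was 0.13, given as a description since the sums share mice and library depth.

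Il1r1, the receptor that carries the signal, was above 0 in 5 of 26 sums. Skin had 59.1 UPM in the healthy mouse and 43.0 UPM in CIA, and joint 31.0 UPM and 41.0 UPM. The 8 fibroblast markers summed to 5122 and 18964 UPM in these skins and to 17503 and 29230 UPM in these joints. The CIA spleen had 7.77 UPM with all 8 fibroblast markers at 0. CIA muscle, with 13841 UPM of fibroblast markers, was listed at 0. Blood, node, lung and thymus were listed at 0 in every mouse, so that Il1r1 had no values to test.

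Il1r2, the decoy receptor, was compared between the states in each organ with a single mouse per state. It was higher in the CIA mouse than in the healthy mouse in all 5 of these organs that listed it. Joint went from 30.5 to 108 UPM, a log2 ratio of 1.54 after adding 10. Muscle went from 32.1 to 137 UPM (1.80) and spleen from 15.5 to 64.7 UPM (1.55). Skin went from 37.2 to 62.7 UPM (0.62). Lung was listed at 0 in the healthy mouse and at 55.9 UPM in CIA. Of all genes, 5.64% were at least 2-fold higher in CIA in joint, 37.5% in muscle, 13.6% in spleen, 12.3% in skin and 24.4% in lung. In lung, muscle, skin and spleen the CIA library had the title suffix 2CIA and the healthy one the suffix CIA, so state and this library label cannot be told apart there. Rare genes were largely missing from the healthy joint and muscle libraries and kept in the CIA muscle and large CIA joint libraries. In lung it was the other way. The CIA values all came from S1, so the 5 organs are 1 CIA mouse and not 5 replicates.

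Neutrophil markers were higher in CIA in 4 of these 5 organs, the spleen (98770 against 4446 UPM), joint (131107 against 62657 UPM), lung (17530 against 496 UPM) and skin (139 against 38.3 UPM). Their part in the Il1r2 levels was not tested. In muscle, whose healthy library held few muscle markers, they were lower in CIA, at 18687 against 106621 UPM. Monocyte (10086 against 5800 UPM), macrophage (2891 against 147 UPM) and fibroblast markers (13841 against 668 UPM) were higher in the CIA muscle. The CIA muscle library was small, with 25 of 54 barcodes listing Il1r2. The joint rested on the large library of S1, since the small one was listed at 0 for every gene of the set but Casp1. The small library alone gave a log2 ratio of -2.02 for Il1r2.

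In blood, Il1r2 was 141, 0 and 109 UPM in S2, S6 and S7, and 207, 16.4, 0 and 14.1 UPM in H3, H4, H6 and H7. The groups overlapped widely, and the log2 difference of 0.72 (95% interval -1.43 to 2.87) did not pass the test (adjusted p = 0.86, limma). Without the small library of H3 it was 1.38 (adjusted p = 0.56), and without S2 it was -0.28. In lymph node, S1 had 12.1 UPM, S7 14.2 UPM and S2 0, and the 4 healthy nodes were all listed at 0. With 5 of 7 nodes at 0, an exact permutation test could give no p below 0.14, which is the value it gave, so it could not pass.

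Between the organs, Il1r2 was higher in blood by 1.86 on the log2 scale (95% interval 0.56 to 3.16, adjusted p = 0.049, limma). The call was at the threshold and did not last, and rare genes were largely missing from every node library. Il1r2 was at 0 in 5 of 7 nodes and passed the filter through blood, and with no filter the adjusted p was 0.16. With each mouse as a block it was 1.83 with an adjusted p of 0.063. It was also lost without H3, H4, H7, S1, S2 or S7, each left out in turn, with adjusted p from 0.069 to 0.19.

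Nlrp3, the sensor of the inflammasome, was highest in lung, with 178 UPM in the healthy mouse and 133 UPM in CIA. In blood it was 71.2, 83.0 and 0 UPM in S2, S6 and S7, and 64.4, 4.92, 27.6 and 9.18 UPM in H3, H4, H6 and H7. The states overlapped (log2 difference 0.40, SE 1.05, adjusted p = 0.92, limma). All 7 nodes were listed at 0, in libraries where rare genes were largely missing. Blood exceeded node in 5 of the 6 mice with both organs, by 1.83 on the log2 scale. As S7 was at 0 in both organs, 0.062 is the smallest p that a two-sided exact sign-flip permutation test allows for these values, and it is the p that was found. Joint had 27.7 UPM in CIA and 18.3 UPM in the healthy mouse, while spleen (17.3 UPM) and skin (6.34 UPM) listed it in CIA only.

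Casp1, the protease that cuts the IL-1β precursor, was the most widely listed. Its blood values were 70.6, 134 and 62.6 UPM in S2, S6 and S7, and 59.8, 24.2, 46.3 and 63.9 UPM in H3, H4, H6 and H7. Under the scaling used for the test S2 was the highest (117), with S6 (67.3) among the healthy mice, so the order of mice depended on the scaling. The log2 difference of 0.36 (95% interval -1.40 to 2.11) did not pass the test (adjusted p = 0.92, limma). Lymph node values ran from 0 in S2 to 50.6 UPM in S1, with a median of 22.9 UPM over 7 mice, and CIA against healthy gave p = 1 in the exact permutation test.

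Blood was above node for Casp1 in all 6 mice with both organs. The log2 difference of 1.34 (95% interval 0.35 to 2.32) had an adjusted p of 0.060 in limma and was not called. Spleen had 80.9 UPM in CIA and 59.4 UPM in the healthy mouse, within the range of blood. Muscle had 44.9 and 43.5 UPM, joint 26.8 and 29.5 UPM, skin 8.45 and 10.9 UPM, and thymus 13.8 and 4.94 UPM, in the same order. Lung differed more, with 77.9 UPM in CIA and 16.8 UPM in the healthy mouse (log2 ratio 1.72).

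In total, limma called 0 of 4 members tested in blood between CIA and healthy mice, where 0.128% of the 4704 genes were called, and 0 had an unadjusted p under 0.05, as 9.82% of all genes had. No member passed the filter on low values in lymph node, where 0.0198% of 5060 genes were called and 3.91% had all CIA nodes above all healthy ones. Between blood and node, 13.7% of 4858 genes were called and 2.37% were called as higher in blood. The members called there, Il1b and Il1r2, passed the filter through their blood values alone, so their number is not read against that share. Whether the CIA difference itself differed between blood and node was tested by an interaction. Among 4858 genes 0 were called by limma, with 409 at an unadjusted p under 0.05, and 0 of 3 members. For Il1b the interaction was 1.45 (95% interval -0.73 to 3.63, adjusted p = 0.71). Of the 8 exact permutation tests on members under the filter, the values allowed a p under 0.05 in 1, that of Casp1 in lymph node. These p-values measure the spread between the mice. The main limma fits of blood against node and of the interaction took the 14 samples as independent, although 6 mice gave both organs. The pairing entered the fit with the mouse as a block and the permutation tests between the organs.

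The organs with 1 mouse per state allow no test. On the log2(value + 10) scale, 11 of 42 values of a gene and organ lay past 2-fold, 4 of them with 1 mouse at 0, while 13 of the 42 were at 0 in both mice. The shares over all genes cover genes averaging 25 UPM or more in the organ, and among the 19 values that met this 9 lay past 2-fold. Of all 11 values past 2-fold, lung held 5, muscle and spleen 2 each, joint and skin 1 each and thymus 0. Il1rn in muscle and Nlrp3 in spleen were those that averaged under 25 UPM. In thymus 10.4% of all genes were at least 2-fold higher in CIA and 6.61% lower. The share at least 2-fold lower was 22.7% in lung, 18.1% in muscle, 23.3% in spleen, 23.1% in joint and 12.8% in skin. A 2-fold difference was thus common among all genes in lung and muscle.

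**Figure D3:**
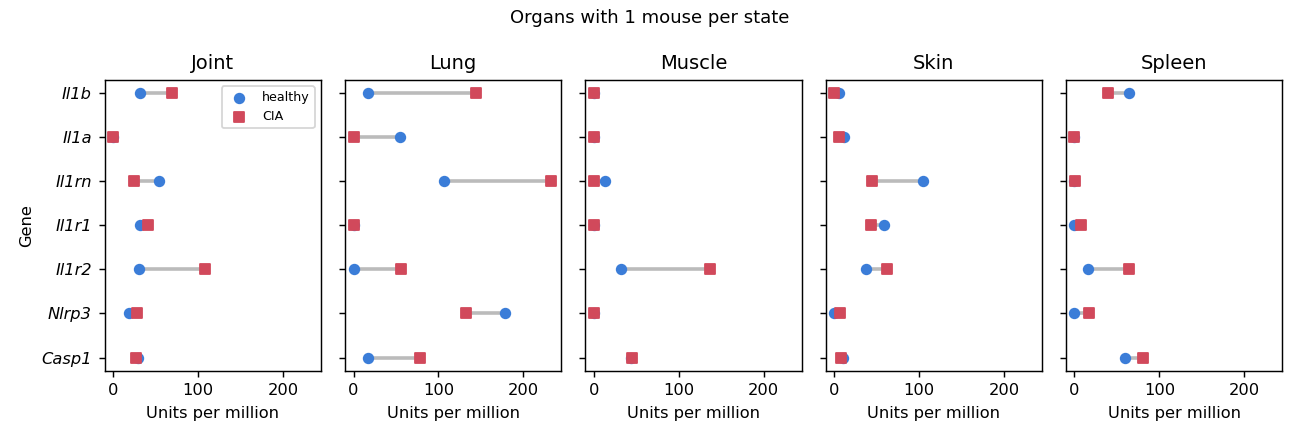
Level in UPM (linear axis) of the 7 genes in the healthy mouse (blue circle) and the CIA mouse (red square) of 5 organs, joined by a grey line. Il1r2 lies further right in CIA in each organ shown, while Il1rn lies right in lung (233 against 107) and left in skin (45.1 against 105).

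Of 90 genes in 6 lists around the members, 80 had a row in the table. The lists were IL-1 family ligands, receptors, signalling genes, inflammasome genes, proteases able to cut IL-1, and genes that IL-1 is known to induce. Il18, the other caspase 1 substrate of the family, was above 0 in 7 of 26 sums and highest in healthy lung (389 UPM). Il1f9, which encodes IL-36γ, was above 0 in 13 sums and highest in the blood of S7 (120 UPM). Il1rap, the receptor partner that Il1r1 needs, was above 0 in 9 sums. Pycard, the inflammasome adaptor, was above 0 in 23 sums and the adaptor Myd88 in 20.

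Between blood and node, 21 listed genes were tested, and 3 were called higher in blood and 1 lower, all from the induced genes, beside 13.7% of all genes called and 2.37% called as higher in blood. The tested genes of that list had a median of 1.06, and all genes one of -0.40. Several of them, such as Cxcl2 and Ccl3, were low in node and passed the filter through blood, so nothing is read from this count or median. Ccl3 and Ccl4, chemokines for monocytes and T cells, were higher by 2.31 and 2.24 (adjusted p = 0.0051 and 0.0091, limma). Cxcl2, a chemokine for neutrophils, was higher by 2.93 (adjusted p = 0.015). Tnfaip3, which restrains NF-κB, fell by 2.01 (adjusted p = 0.013). With no filter on low values these 4 genes had adjusted p of 0.0085 to 0.045. Ccl3 ran from 45.3 to 317 UPM over the 7 blood samples and from 0 to 31.7 UPM over the nodes, without overlap. Tnfaip3 was 0 to 58.99 UPM in blood and 46.9 to 242 UPM in node.

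Between CIA and healthy mice 0 of 27 listed genes were called in blood and 0 of 19 in node by limma, with 7 and 2 at an unadjusted p under 0.05. Of all genes, 0.128% and 0.0198% were called, and 9.82% and 4.23% had an unadjusted p under 0.05. The listed genes that passed the filter had a median of 0.31 in blood, and all genes one of -0.55, from which nothing is read for the same reason. Ccl2, a chemokine for monocytes, was chosen after its values were seen. It was 263, 176 and 69.1 UPM in the blood of S2, S6 and S7, and 0, 1.03, 0 and 10.2 UPM in that of H3, H4, H6 and H7. The groups did not overlap, as for 1.74% of all genes in that direction, and the adjusted p was 0.23 (log2 difference 3.41).

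Up to 3 listed genes with the largest ratios are given for each organ with 1 mouse per state. In joint, Mmp3, a protease of fibroblasts, was 1124 UPM in CIA and 54.9 UPM in the healthy mouse. Mmp13 (133 UPM) and Mmp9 (94.1 UPM) were listed there in CIA only. In lung, Saa3, an acute phase gene, was 644 UPM in CIA against 25.1 UPM, Mmp8 was 125 UPM in CIA only, and the kinase gene Ikbkb 105 UPM in the healthy mouse only. In spleen, Lcn2 was 627 against 31.0 UPM, and the neutrophil proteases Prtn3 (155 UPM) and Ctsg (101 UPM) were listed in CIA only. Rare genes were largely missing from the healthy joint and the CIA lung and kept in the large CIA joint and the healthy lung. The joint and lung pairs were thus not treated alike.

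Muscle went the other way for neutrophil genes, as its markers did. Lcn2 was 28.4 UPM in CIA and 1264 UPM in the healthy mouse, and Elane (227 UPM) and Sod2 (162 UPM) were listed in the healthy mouse only. In skin, the growth factor gene Csf3 was 5.64 against 125 UPM and the chemokine Ccl20 5.64 against 97.5 UPM, and Chuk (50.4 UPM) was listed in the healthy mouse only. In thymus the largest differences were small, at -0.72 for Sod2, -0.70 for Tollip and 0.70 for Tnfaip3 on the log2 scale.

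Barcodes were then ranked by the share of their units from marker genes, over the 4590 distinct profiles. The 459 profiles richest in neutrophil markers and the 459 richest in monocyte markers both stood above the whole for 5 members. Il1b stood at 241 UPM in the former and 138 UPM in the latter, against 61.0 UPM over all profiles. Il1r2 stood at 119 and 106 UPM against 21.8 UPM, and Nlrp3 at 41.9 and 43.9 UPM against 8.63 UPM. Il1rn was 35.6 and 54.1 UPM against 10.0 UPM, and Casp1 47.3 and 70.4 UPM against 31.6 UPM. Casp1 was about as high in profiles richest in B cell markers, at 69.2 UPM. Il1r1 was 39.8 UPM in profiles richest in fibroblast markers, against 5.71 UPM over all. Il1b was as high in profiles richest in red-cell markers, at 255 UPM, and 408 of these 459 came from blood libraries. In profiles richest in T cell or thymocyte markers, Il1b was listed at 0. Smoothed profiles share values with their neighbours, so these levels are descriptions without a test.

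Neutrophil-rich profiles of different organs held unlike amounts of Il1b. In blood the level was 833 UPM in S2, 1267 UPM in S7 and 1341 UPM in the healthy H7, with 44, 10 and 10 profiles. In joint it was 128 UPM in CIA and 97.0 UPM in the healthy mouse, in CIA lung 203 UPM and in CIA spleen 56.7 UPM. The 36 neutrophil-rich profiles of the healthy muscle listed it at 0, although 28.3% of their units were neutrophil markers. Il1r2 was present in all 8 of these libraries, at 35.7 to 196 UPM, and stood at 72.9 UPM in that muscle. The profiles were picked over the whole series, with neutrophil markers at 1.65% of their units or more. Over all barcodes these markers summed to 5434 UPM in the blood of H7 and 131107 UPM in the CIA joint. The profiles need not be equally rich in them, so these levels do not compare neutrophils between organs.

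**Figure D4:**
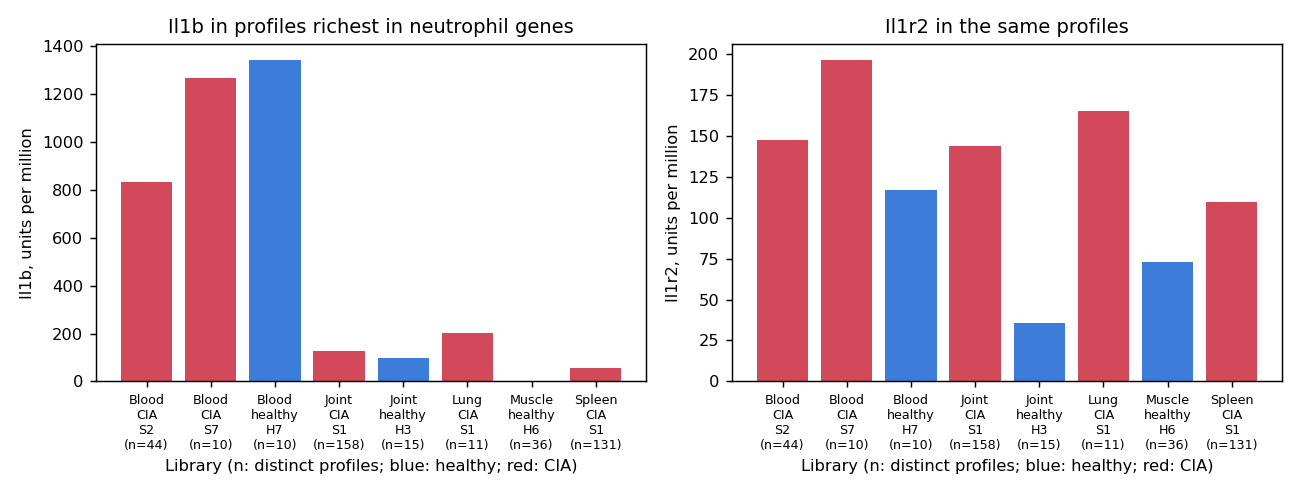
Level in UPM (linear axes) of Il1b (left) and Il1r2 (right) in the distinct profiles richest in neutrophil markers, for each library with at least 10 of them (healthy blue, CIA red). Il1b stands at 833 to 1341 in the 3 blood libraries and at 203 or less in the other organs, while Il1r2 is present in all 8 libraries.

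Barcodes that listed Il1b were compared with the others of the same library in the 15 libraries with at least 10 of them. Neutrophil markers were higher in the barcodes with Il1b in 13 of 15 libraries and monocyte markers in 13, while B cell markers were higher in 2. In the CIA joint the neutrophil markers were 246323 UPM in 199 barcodes with Il1b and 82641 UPM in the other 407. In the blood of S6, where neutrophil markers were few, monocyte markers were 21948 UPM in 26 barcodes with Il1b and 2232 UPM in the other 36. Red-cell markers were higher in 7 of 15 libraries.

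**Figure D5:**
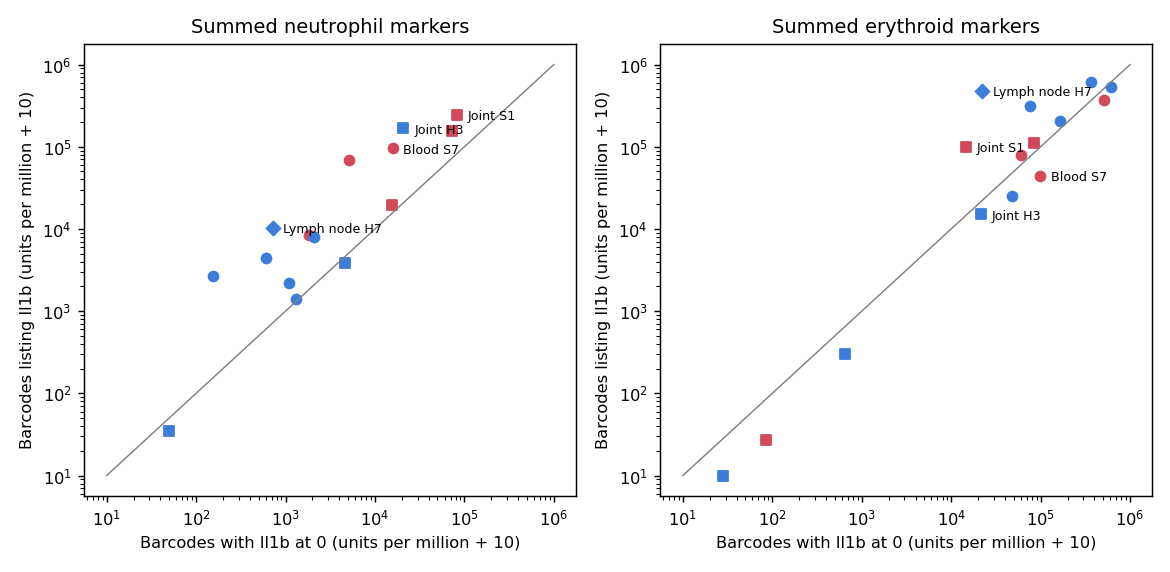
Summed neutrophil (left) and red-cell (right) markers in the barcodes with Il1b at 0 (horizontal) and in those listing it (vertical), as UPM plus 10 on log axes, for 15 libraries (circles blood, diamond lymph node, squares other organs; healthy blue, CIA red). Points above the grey line of equality, 13 of 15 at the left and 7 of 15 at the right, have more in the barcodes with Il1b.

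Barcodes listing both receptors were set against the share of all barcodes that listed Il1r2. In the large CIA joint library, 69.5% of 213 barcodes with Il1r1 also listed Il1r2, close to the 64.4% of all its barcodes that did. In the healthy joint 0 of 54 did, where 14.5% of all barcodes listed Il1r2. In the CIA skin 76.9% of 52 barcodes with Il1r1 listed Il1r2, against 26.7% of all, and in the healthy skin 28.3% of 60, against 34.2% of all. In the CIA spleen it was 13.9% of 36, against 28.2% of all. Il1b and Il1rn shared 62 barcodes in the CIA lung, 69.7% of those with Il1b and 51.7% of those with Il1rn, near the 65.9% and 48.9% of all barcodes that listed Il1rn and Il1b. Elsewhere the share of barcodes with Il1b that listed Il1rn was above that of all barcodes in the large CIA joint library (42.2% against 24.4%) and below it in the healthy joint (10.2% against 18.7%). In the healthy skin 10 of 11 barcodes with Il1b listed Il1rn, against 79 of 158 of all. In the larger blood library of H4 all 29 barcodes with Il1rn listed Il1b, against 46.2% of all. The other 3 libraries with both genes, the blood of S2, the healthy lung and the CIA spleen, shared 14, 8 and 5 barcodes. Smoothing adds neighbours to a barcode, and barcodes that hold several cells were not looked for, so a shared barcode need not be a shared cell.

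Out of 5417 genes averaging 25 UPM or more, the 5 whose levels over the 26 sums were most like those of Il1b were Cxcr2 (Spearman's rho 0.81), Gda (0.81), Sirpb1b (0.77), Kdm7a (0.75) and Alas2 (0.73). Alas2 is a red-cell gene. Those most like Il1rn were Inhba (0.97), Hmox1 (0.87), Niban2 (0.87), Saa3 (0.87) and Slc7a11 (0.87). The sums share mice, libraries and many values at 0, so these are descriptions.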

How the data were processed

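The authors sequenced Seq-Well libraries, aligned reads to GRCm38 with STAR and counted molecules with the Drop-seq tools, by the study's methods. The submitters' processing notes name mm9 and GRCh38 instead, with bcl2fastq, Picard and STAR. They dropped barcodes with few reads, transcripts or genes or much mitochondrial RNA, and summed each with its nearest neighbours. In the later analysis of fewer organs, the study's methods also removed cells with very many transcripts, for the risk of duplicates. Whether this was done for the values used here is not clear from those methods. The deposited values are thus a whole-number signal, not counts, and a test was chosen to fit that. Library totals set the precision, and depth in molecules is unknown.

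Units were summed per mouse and organ, with libraries of the same mouse and organ added. Tests used limma 3.58.1 in R 4.3.3 on log2(UPM + 10), with trimmed-mean scaling (trims of 30% for ratios and 5% for levels; numpy 2.4.6), a filter on low values (average of 25 UPM or more), a variance trend, two-sided p-values, Benjamini-Hochberg adjustment over all genes and a call at 0.05. Such log2 differences understate low genes. Members under the filter had two-sided exact permutation tests over mice. Organs with 1 mouse per state had no test. Marker-rich profiles are the top 10% by share of marker units among 16 lists, of which 3 (alveolar epithelial, mast cell and platelet) were left out because profiles with no such unit entered. The fits were also run on simulated data with known changes, and the outcome is not given here. Blood and node of a mouse come from the same animal, a pairing that the main limma fits do not use. In the fit with the mouse as a block, the correlation within a mouse was -0.069.

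The members and lists were chosen with earlier results of these data known. Besides the 7 members, genes were named by rule: called genes of the 6 lists, up to 3 of the largest ratios per organ with 1 mouse per state, and the 5 genes most like Il1b and Il1rn. Ccl2, Il18, Il1f9, Il1rap, Pycard and Myd88 were named after their values were seen. Titles end in CIA or 2CIA, a suffix of unknown meaning treated as a library batch. Alternatives were other scalings, pseudocounts and filters, no trend, each mouse left out, 1 suffix, and the mouse as a block. Scaling without red-cell markers was added after seeing the data.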

Additional observations from a re-analysis of the deposited data

Results flagged for a closer look

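In 7 groups of 4 healthy mice with values above 0, the highest and lowest mouse were compared with the others by Dixon's ratio, which chance passes in about 1 group in 20. Il1b in the lymph node of H7 (41.0 UPM) stood apart from the 3 nodes listed at 0. Il1r2 in the blood of H3 (207 UPM, next highest 16.4 UPM) stood apart, and that library has 27 barcodes in 7 distinct profiles. Il1rn in the blood of H4 (5.95 UPM) stood apart from 3 mice listed at 0. In groups where the others are all at 0, any listed value is set apart by this ratio.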

How the results depend on the processing

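In blood, lymph node and the interaction, 0 members were called in the main setting and in each alternative run. Between blood and lymph node 2 members were called, Il1b in each of 16 alternatives (adjusted p 5.2e-06 to 0.0019) and Il1r2 in 3 of them. The number called was 1 with scaling by the total, median-of-ratios scaling, no filter on low values, a pseudocount of 1, or libraries of suffix 2CIA only. With the mouse as a replicate block it was 1 too, and 522 genes were called in place of 667. The block changed no other call of a member. Leaving out each mouse gave 1 to 2 members called and 103 to 739 genes. In the other alternatives 168 (no filter) to 717 (scaling by the total) genes were called, and 398 with median-of-ratios scaling, which moved the share higher in blood from 17.2% to 37.4% (11.9% with scaling by the total). Casp1 passed only without the variance trend (adjusted p = 0.044). In blood between the states, the genes called ran from 0 to 16 against 6, and in lymph node from 0 to 7 against 1. The median of all genes in blood was -0.55, -0.10 with scaling by the total and 0.36 with suffix 2CIA only.

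Directions that turned, none of them called, were Il1r2 in blood without S2 (-0.28; range over left-out mice -0.28 to 1.94), Nlrp3 in blood with a pseudocount of 1 (-0.26), and, in the interaction, Il1r2 (leave-one-out range -1.47 to 1.24) with median-of-ratios scaling (0.041), without H3 (0.68), H4 (0.017), S1 (0.090) or S6 (1.24), and Casp1 without S2 (-0.50; range -0.50 to 1.07). From the small CIA library of S1 alone, the joint turned for Il1r2 (-2.02), Il1b (-2.05), Il1r1 (-2.04), Nlrp3 (-1.50) and Casp1 (1.54). The other 3 alternatives moved Il1b in joint from 0.94 to past 2-fold (1.03 to 1.42). With trimmed-mean scaling Casp1 turned in joint (0.34) and muscle (-0.39). With a pseudocount of 1, 18 values in organs with 1 mouse per state lay past 2-fold, against 11. The causes were not tested. Members highest in profiles rich in a myeloid list numbered 5 of 7, 4 in the narrower choice of profiles and 5 over all barcodes. In both alternatives Casp1 was highest in B cell-rich profiles (86.9 and 64.9 UPM), and over all barcodes Il1b was highest in neutrophil-rich ones (305 UPM).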
